A study of Mus musculus with 18 samples.

Results

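Nanog, Esrrb, Zfp42, Klf2, Klf5, Tbx3, Nr0b1, Tcl1 and Fbxo15 are 9 genes whose RNA is used to recognise the naive state of mouse pluripotent cells. They were chosen by name, with earlier results of these data known. Every array probe whose gene name in the files was 1 of the 9 was read. This gave 14 of 41174 non-control probes and 9 of the 24971 genes tested, and all 14 probes passed the filter on dim probes. Tcl1 encodes a co-activator of the kinase Akt and Fbxo15 an F-box protein of a ubiquitin ligase, and the rest are transcription factors.

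Naive pluripotency is the ground state of the early epiblast and of mouse embryonic stem cells (ESC) kept in leukaemia inhibitory factor (LIF). It is held by Pou5f1 and Sox2 together with a second layer of factors, among them Nanog, Esrrb, Tbx3 and the Krüppel-like factors Klf2, Klf4 and Klf5, which feed back on each other and on the signals that keep them on. When mouse ESC leave this state these second-layer genes are turned down before Pou5f1 is. In fibroblasts they are mostly silent, several of them with methylated promoters, and they are switched on again when a fibroblast is reprogrammed to an induced pluripotent stem cell (iPSC).

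RNA was read on 18 arrays that take a pair of dyes, so on 36 channels, from 5 kinds of cells. The series compared Dnmt3ab-deficient iPSC with control iPSC, and Dnmt3a and Dnmt3b are the enzymes that methylate DNA sites that carry no methyl group. There were 12 channels of the deficient clones 8, A6 and B2 taken when the labels describe some signs of differentiation (differentiating clones), 6 channels of the same clones without that remark (deficient iPSC), 12 channels of 4 control iPSC lines numbered 3 to 6, 3 channels of V6.5 ESC, a hybrid mouse ESC line, and 3 channels of mouse embryonic fibroblasts (MEF). The labels mark the partner channels (differentiating clones, V6.5 ESC and MEF) as left out of the study's own statistics. Every iPSC line had been grown on irradiated MEF feeders under mouse ESC conditions and taken off feeders for 1 or 2 passages on gelatin before RNA was made. The labels give neither the ages and strains of the cells, nor how the lines were derived, nor which part of Dnmt3a and Dnmt3b is missing. Each line is 1 clone or line, V6.5 ESC and MEF are 1 RNA each, and nothing says that the arrays of a line held separate cultures, so the spread over lines is the only replicate error here.

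Each deficient iPSC clone lay once beside MEF and once beside V6.5 ESC, on 6 arrays of 2 slides scanned on 1 day. The 12 arrays scanned on another day held a differentiating clone in 1 channel and a control line in the other, with 1 clone and all 4 control lines on each of 3 slides. Differentiating clones against control iPSC, and deficient iPSC against V6.5 ESC and MEF, were therefore read within arrays. Deficient iPSC against control iPSC, and differentiating clones against deficient iPSC, were read across the scan days, and in these the scan day cannot be told apart from the group. The median signal over background per channel was 122.9 to 264.4 on the first day and 88.6 to 312.6 on the other, 69.7% to 92.6% of all probes stood clear of background, and no spot was saturated. The number of arrays limits the precision.

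One array went against its label. On the array labelled control line 5 beside clone 8, Dnmt3a was 0.05 log2 units higher in the clone than in the control channel, while on the other 11 arrays it was 1.42 to 2.20 units lower in the clone. Its control channel read 9.78 in Dnmt3a, against 10.91 to 11.36 in the control channels of the other 11. Gata6, an endoderm factor high in the differentiating clones, differed by -0.28 on that array and by 1.43 to 4.05 on the other 11. In the control channel it read 11.83, against 8.15 to 9.44 in the control channels of the other 11. The clone channel departed as well, with Gata6 at 11.55 against 13.08 to 13.21 on the other 3 arrays of clone 8, Nanog at 12.88 against 11.23 to 11.68 and Nr0b1 at 14.37 against 12.12 to 12.23. Both channels thus departed from the other arrays of their label, and what each of them held cannot be told. The array as a whole is called doubtful here. Calls and directions of the 9 genes are given with all arrays and without that one, while values within slides, and values with 1 line left out, were not computed again without it. A second array, control line 3 beside clone A6, had a level of the Y-linked Eif2s3y of 9.67 in the clone channel, against 7.62 to 7.76 on the other 3 arrays of that clone. Leaving both arrays out gave the same number of members called in each of the 5 comparisons as leaving out the first alone.

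Values below are log2 normalised intensities, 1 per line and state, from a fit over all 36 channels that separates lines from dyes. A difference of 1 is a doubling. Levels are compared within a gene only, since the brightness of different probes is not comparable. A difference was called when its adjusted p was under 0.05 in limma, with Benjamini-Hochberg adjustment over all 24971 genes. Errors on differences are standard errors (SE). The normalisation sets the overall distribution of signal equal on every array, so a shift of all RNA levels cannot be seen, and in these bulk samples fewer cells that express a gene and less RNA per cell cannot be told apart. As a check of the labels, Dnmt3a differed by -1.68 ± 0.21 between differentiating clones and control iPSC (adjusted p = 0.0262, limma) and by -1.48 ± 0.28 between deficient and control iPSC (adjusted p = 0.00526). Dnmt3b differed by -0.32 ± 0.45 between deficient and control iPSC and was not called (adjusted p = 0.596, limma), and a probe outside the missing part of a gene cannot check its deletion.

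The probes used lie, on mouse build mm7 as the files give it, at chr6:122750894-122750953 for Nanog, chr12:84523822-84523881 for Esrrb, chr8:42080746-42080805 for Zfp42, chr8:70844133-70844192 for Klf2 and chr5:118918450-118918509 for Tbx3. Those of Nr0b1 and Tcl1 lie at chrX:81582482-81582541 and chr12:102711536-102711595, that of Klf5 is listed as chr14:93704580-93714312, a span of 9733 bases. Exons and untranslated regions were not read, since no annotation of that build was used. Nanog has near-identical pseudogene copies in the mouse genome, and RNA from them could not be separated by this probe. Second probes of Esrrb, Klf5 and Tbx3 were dim, at most 8.55 log2 units in any line, and were not used for levels.

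The promoters of Nanog and Zfp42 are shown because these 2 genes carried the differences that stood clearest in the comparisons below. Nanog is a textbook target of Pou5f1 and Sox2, which bind the octamer, searched here by its core TTTGCAT, and the Sox motif ACAATG. Zfp42 is a textbook target of Pou5f1. The 250 bases before the RefSeq start are given 5′ to 3′ on the gene's strand, on build GRCm38.p6, at chr6:122707239-122707488 (+ strand) for Nanog and chr8:43307010-43307259 (- strand) for Zfp42, with the motif letters in capitals.
Nanog: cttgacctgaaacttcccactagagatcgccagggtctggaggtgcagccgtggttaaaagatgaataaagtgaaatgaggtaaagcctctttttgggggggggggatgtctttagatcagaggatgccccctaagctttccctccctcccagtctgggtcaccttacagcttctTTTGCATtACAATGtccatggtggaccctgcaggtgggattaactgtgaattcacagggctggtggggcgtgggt
Zfp42: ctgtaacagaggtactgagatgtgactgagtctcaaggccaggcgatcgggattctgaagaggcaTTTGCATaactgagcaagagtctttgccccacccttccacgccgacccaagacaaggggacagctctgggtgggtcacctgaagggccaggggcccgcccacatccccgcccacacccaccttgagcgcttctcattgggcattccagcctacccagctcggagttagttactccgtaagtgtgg
In Nanog both motifs stand 1 base apart, beginning 75 and 67 bases before the start. In Zfp42 the octamer core alone was found, 185 bases before the start. Searched on both strands, the octamer core was found in 4.12% and ACAATG in 10.7% of 32851 promoter windows of the same length. The pair 1 base apart was found in 2 windows, both of them Nanog entries whose starts lie 76 bases apart. The windows hold 3 CpG in Nanog and 9 in Zfp42, against a median of 6 over all windows. Of the 9 genes, 6 had a promoter entry, and Klf2 had the most CpG of them with 29, while Klf5, Tbx3 and Fbxo15 were not in the table. A match describes the letters only, and methylation was not measured here.

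By the probes used for levels, all 9 genes were lowest in MEF. The second Klf2 probe went the other way and read 15.82 in MEF, above V6.5 ESC at 15.24 and every iPSC line. Averages of groups ran from V6.5 ESC through deficient iPSC and control iPSC to differentiating clones and MEF, high to low, for Nanog, Esrrb, Klf2, Tbx3 and Tcl1. Zfp42 and Fbxo15 had the differentiating clones above control iPSC, and Klf5 and Nr0b1 had deficient iPSC above V6.5 ESC. For the groups compared, the tests below say which differed beyond the spread over lines or, against V6.5 ESC and MEF, over arrays.

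**Figure D1:**
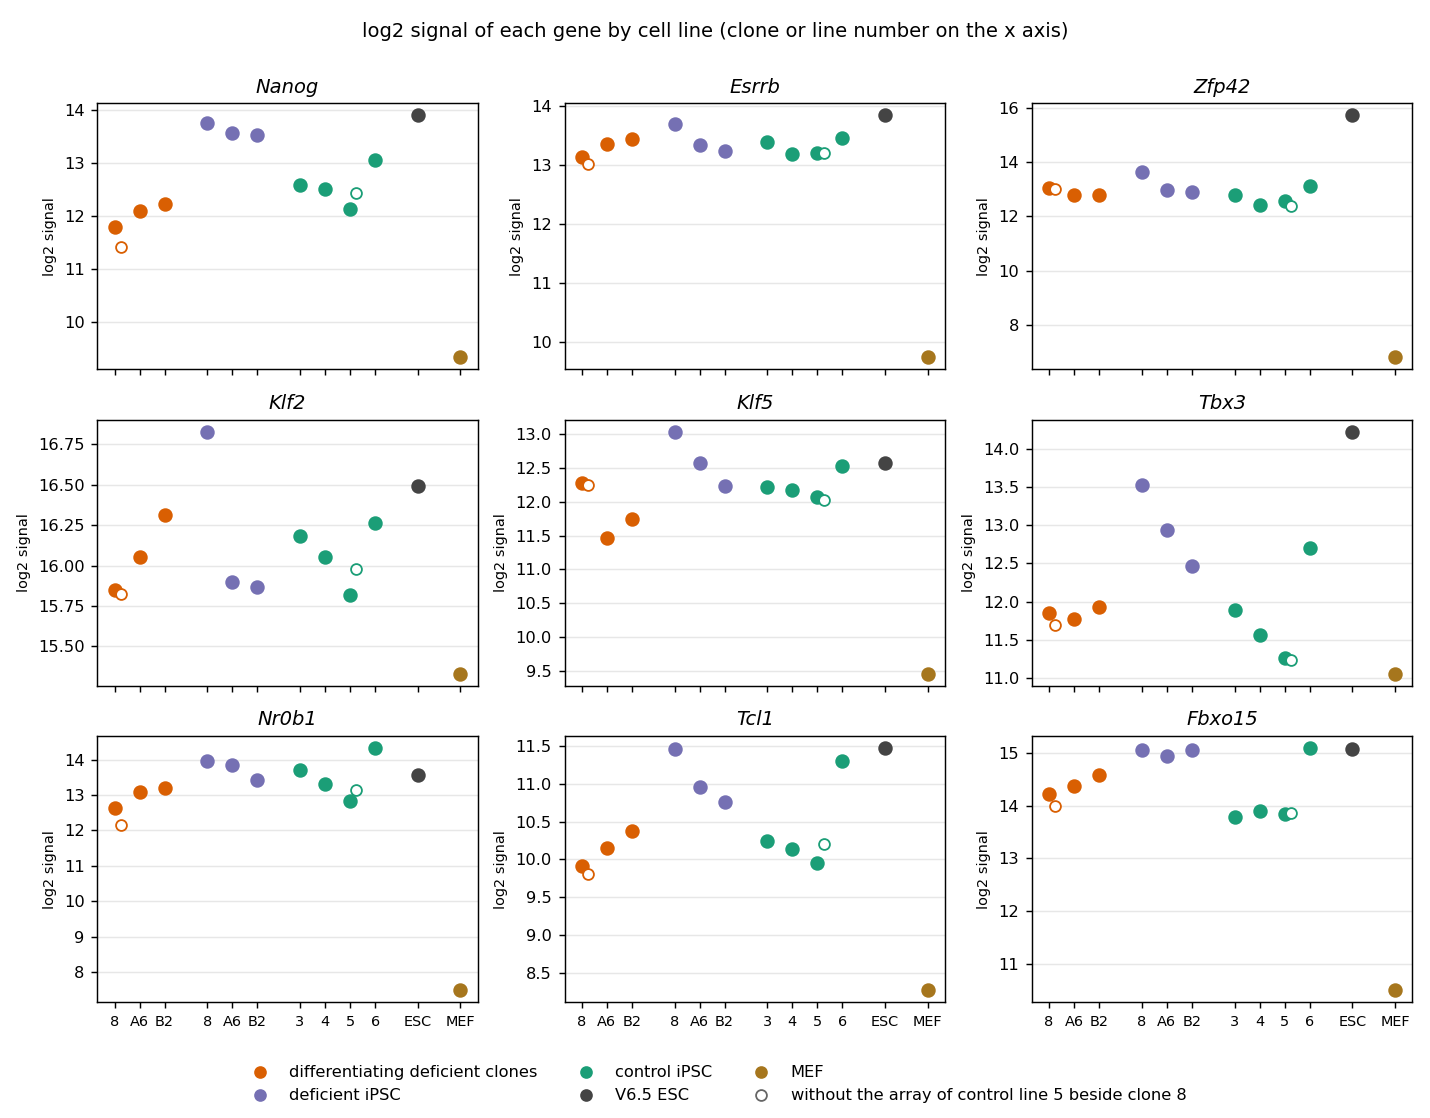
Log2 normalised intensity (vertical axis) of each of the 9 genes in the 3 differentiating clones, 3 deficient iPSC, 4 control iPSC lines, V6.5 ESC and MEF, 1 filled point per line. Hollow points give the values without the doubtful array. Zfp42 in V6.5 ESC, at 15.72, lies above every iPSC line, and MEF lie lowest in all 9 panels.

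Deficient iPSC expressed most of the 9 genes far above MEF, and beside V6.5 ESC 1 of them, Zfp42, was called lower. In Zfp42, also known as Rex1, a zinc finger protein that is the classic marker of naive cells, the clones 8, A6 and B2 reached 13.65, 12.98 and 12.89 log2 units, against 15.72 in V6.5 ESC. No deficient clone came near V6.5 ESC. The within-array difference was -2.00 for clone 8, -2.74 for clone A6 and -2.82 for clone B2, and the fitted difference was -2.60 ± 0.21 (n = 3 arrays, 95% interval -3.06 to -2.15), so 6.08-fold lower (adjusted p = 5.15e-06, limma). It was -2.59 without the doubtful array (adjusted p = 1.17e-05). The low Zfp42 level was known from these same arrays when the genes were chosen, so these p-values describe it and are no independent test. The second Zfp42 probe, at chr8:42080786-42080857 and overlapping the first, gave -2.95, -3.54 and -3.61 for the same clones. The spread over the 3 channels of V6.5 ESC RNA was 0.05 (SD), but that is 1 RNA read in 1 dye, so the spread between ESC cultures was not measured. The SE and p-values of the fit take their error from all 18 arrays, 12 of them with differentiating clones and control lines. A fit on these 3 arrays alone called no gene among all, with 4639 at an unadjusted p under 0.05, and gave Zfp42 -2.52 (adjusted p = 0.0839).

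The other iPSC values lay below V6.5 ESC too. Zfp42 was at 13.06, 12.80 and 12.80 in the differentiating clones 8, A6 and B2 and at 12.81, 12.43, 12.59 and 13.11 in control lines 3 to 6. V6.5 ESC stood 2.07 units above the highest of the 10 iPSC values, which was that of deficient clone 8. Control iPSC and V6.5 ESC never lay on the same array, and that difference was not tested.

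Tbx3, a T-box factor that acts downstream of LIF and is also needed for endoderm, was the next most distant from V6.5 ESC. The within-array differences were -0.68, -1.22 and -1.67 for clones 8, A6 and B2, all below V6.5 ESC, and the fitted -1.23 ± 0.37 was not called (adjusted p = 0.0657, limma, and 0.0611 without the doubtful array). It was called with Agilent's processed signals (adjusted p = 0.0347), with full quantile normalisation (0.0411), without a dye term (0.0272) and on the deposited ratios (0.0262). Esrrb, an orphan nuclear receptor that can stand in for Nanog, was lower in all 3 clones at -0.09, -0.52 and -0.72, with a fitted -0.39 ± 0.14 that was not called (adjusted p = 0.141). Without the array of clone 8, Esrrb was at -0.57 and called (adjusted p = 0.0356), as it was at -0.44 with no dye term (0.0392).

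The remaining 6 genes differed from V6.5 ESC by less than the test could call. Nanog was lower by 0.17, 0.38 and 0.47 units in clones 8, A6 and B2 on their arrays, and its fitted difference was -0.26 ± 0.30 with an interval of -0.91 to 0.38. On the deposited ratios it was -0.35 and called (adjusted p = 0.0422). Klf2, by the probe used for levels, was higher by 0.47 in clone 8. It was lower by 0.49 in clone A6 and 0.54 in clone B2, so the clones did not go one way by that probe (-0.29 ± 0.24). The second Klf2 probe gave -0.24, -0.50 and -0.36 for clones 8, A6 and B2, with a fitted -0.04 ± 0.14. Fbxo15 differed by -0.14 ± 0.35, Tcl1 by -0.44 ± 0.35, Klf5 by 0.05 ± 0.26 and Nr0b1 by 0.21 ± 0.45, with adjusted p-values of 0.587 to 0.958. Of the 9 genes 1 was called lower and none higher, where 1.86% of all genes were called lower and 3.51% higher, and the median of the 9 differences was -0.29 beside 0.03 for all genes. Leaving out the doubtful array changed no call or direction among the 9. Over all kept probes, the ratios beside V6.5 ESC correlated with the deposited ones at 0.64 for clone A6, 0.80 for clone B2 and 0.99 for clone 8. In clone A6, Tcl1 was -0.41 here and -0.98 deposited, Klf5 0.14 and -0.15, and Zfp42 -2.74 and -2.65.

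**Figure D2:**
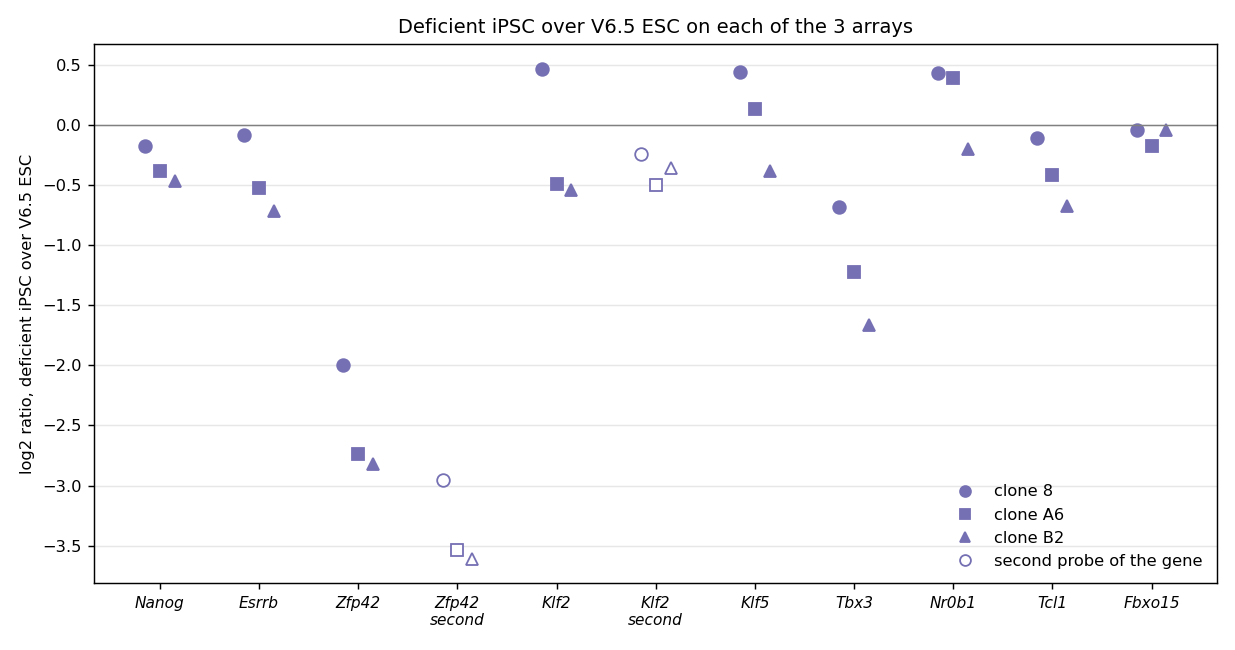
Log2 ratio of deficient iPSC over V6.5 ESC (vertical axis) for each gene on the 3 arrays that held both, 1 point per clone, with second probes of Zfp42 and Klf2 hollow. The 3 Zfp42 points lie between -2.82 and -2.00, while those of Nanog lie between -0.47 and -0.17.

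Against MEF all 9 genes were called higher in deficient iPSC, where 28.2% of all genes were called higher and 30% lower, and the median of the 9 differences was 3.65 beside -0.01 for all genes. Zfp42 led with 6.43 ± 0.21, and Nr0b1, known as Dax1, an orphan nuclear receptor that binds Pou5f1 protein, followed with 6.25 ± 0.45. Fbxo15 was higher by 4.60 ± 0.35, Nanog by 4.28 ± 0.30, Esrrb by 3.65 ± 0.14, Klf5 by 3.15 ± 0.26, Tcl1 by 2.82 ± 0.35 and Tbx3 by 1.90 ± 0.37. Their adjusted p-values lay between 1.87e-13 and 0.000272 (limma, 3 arrays in the contrast, error from all 18). All 9 stayed called without the doubtful array.

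Klf2, a Krüppel-like factor also known from endothelium, was the exception in size. It was higher than MEF by 1.40 in clone 8, 0.44 in clone A6 and 0.43 in clone B2, with a fitted 0.86 ± 0.24 (adjusted p = 0.00605, limma), and without the array of clone 8 the difference of 0.53 was not called (adjusted p = 0.0824). The second Klf2 probe, at chr8:70842757-70842816, gave -0.75 ± 0.14, the opposite direction. The mean of both probes differed by 0.05, so the direction of Klf2 against MEF differed between its probes.

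Differentiating clones had less RNA of 6 of the 9 genes than the same clones read as deficient iPSC (4 without the doubtful array), and Nanog had the largest difference of the 9. Nanog, the homeodomain factor that gates exit from the naive state, stood at 11.79, 12.09 and 12.23 log2 units in differentiating clones 8, A6 and B2, against 13.76, 13.58 and 13.53 in deficient iPSC. The groups were far apart in every clone. Clone 8 was lower by 1.97 units, clone A6 by 1.49 and clone B2 by 1.30. The paired difference was -1.59 ± 0.14 (n = 3 clones, interval -1.98 to -1.19), so 3.00-fold lower (adjusted p = 0.00442, limma). With the doubtful array left out, clone 8 read 11.42 and the difference was -1.69 (adjusted p = 0.00862).

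Tbx3 was at 11.86, 11.77 and 11.93 in differentiating clones 8, A6 and B2, against 13.52, 12.94 and 12.47 in deficient iPSC. The differentiating clones were nearly level with each other while the deficient ones spread over 1 unit, and the groups did not overlap. The difference was -1.13 ± 0.23 (adjusted p = 0.0202, and 0.022 without the doubtful array). Klf5, a Krüppel-like factor that LIF maintains, was at 12.28, 11.46 and 11.74 in differentiating clones, against 13.04, 12.58 and 12.24 in deficient iPSC. Differentiating clone 8 lay just above deficient clone B2, so the groups overlapped, yet each clone was lower than itself, by -0.75, -1.11 and -0.50. The difference was -0.79 ± 0.13 (adjusted p = 0.0119, and 0.0114 without the doubtful array).

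Fbxo15, read by a probe on chromosome 18, is a Pou5f1 and Sox2 target whose locus carried the reporter of early reprogramming work. It was at 14.22, 14.37 and 14.58 in differentiating clones 8, A6 and B2, against 15.05, 14.95 and 15.05 in deficient iPSC. All 3 clones were lower, by -0.63 ± 0.08 (adjusted p = 0.00775, and 0.0134 without the doubtful array). A further pair of genes was called only with all arrays in. Tcl1 was at 9.91, 10.15 and 10.37 in differentiating clones, against 11.47, 10.96 and 10.75 in deficient iPSC, with a difference of -0.92 ± 0.24 (adjusted p = 0.0378, and 0.0543 without the doubtful array). Nr0b1 was at 12.65, 13.10 and 13.21 in differentiating clones, against 13.97, 13.86 and 13.43 in deficient iPSC, with a difference of -0.77 ± 0.23 just under the threshold (adjusted p = 0.04997, and 0.081 without the doubtful array). Neither gene's groups overlapped. Both also missed the threshold with Agilent's processed signals (adjusted p = 0.0501 for Tcl1 and 0.0519 for Nr0b1), Tcl1 with full quantile normalisation (0.0781) and Nr0b1 with no filter on dim probes (0.0511).

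The last 3 genes were not called. Esrrb averaged 13.31 ± 0.15 in differentiating clones and 13.42 ± 0.25 in deficient iPSC (SD, n = 3 each), a difference of -0.11 ± 0.16 with an interval of -0.56 to 0.34. Klf2 averaged 16.07 ± 0.23 in differentiating clones and 16.20 ± 0.55 in deficient iPSC, and its difference of -0.13 ± 0.30 was made of -0.98 in clone 8, 0.16 in clone A6 and 0.44 in clone B2. Without clone 8 the Klf2 difference was 0.30 and called higher (adjusted p = 0.0387), whereas its second probe was lower by 0.57 ± 0.05 with all clones. Zfp42 had a difference of -0.29 ± 0.11 (adjusted p = 0.0993), and of -0.36 without the doubtful array (adjusted p = 0.057). It was called with Agilent's processed signals (adjusted p = 0.0395) and with the mean of its probes (0.0374).

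Counted together, 6 of the 9 genes were called lower and none higher in differentiating clones than in deficient iPSC, where 19.4% of all genes were called lower and 33.1% higher. The median of the 9 differences was -0.77 beside 0.07 for all genes. For 5 of them the 3 clones lay wholly below the deficient iPSC, as 21.8% of all genes did. Nanog, Klf5, Tbx3 and Fbxo15, so 4, were called lower without the doubtful array, where 19.2% of all genes were. Left with clones 8 and B2 only, the test called no gene in this comparison, with 10332 at an unadjusted p under 0.05, and the adjusted p-values of the 6 lay between 0.0526 and 0.176. Scan day and state cannot be told apart here.

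**Figure D3:**
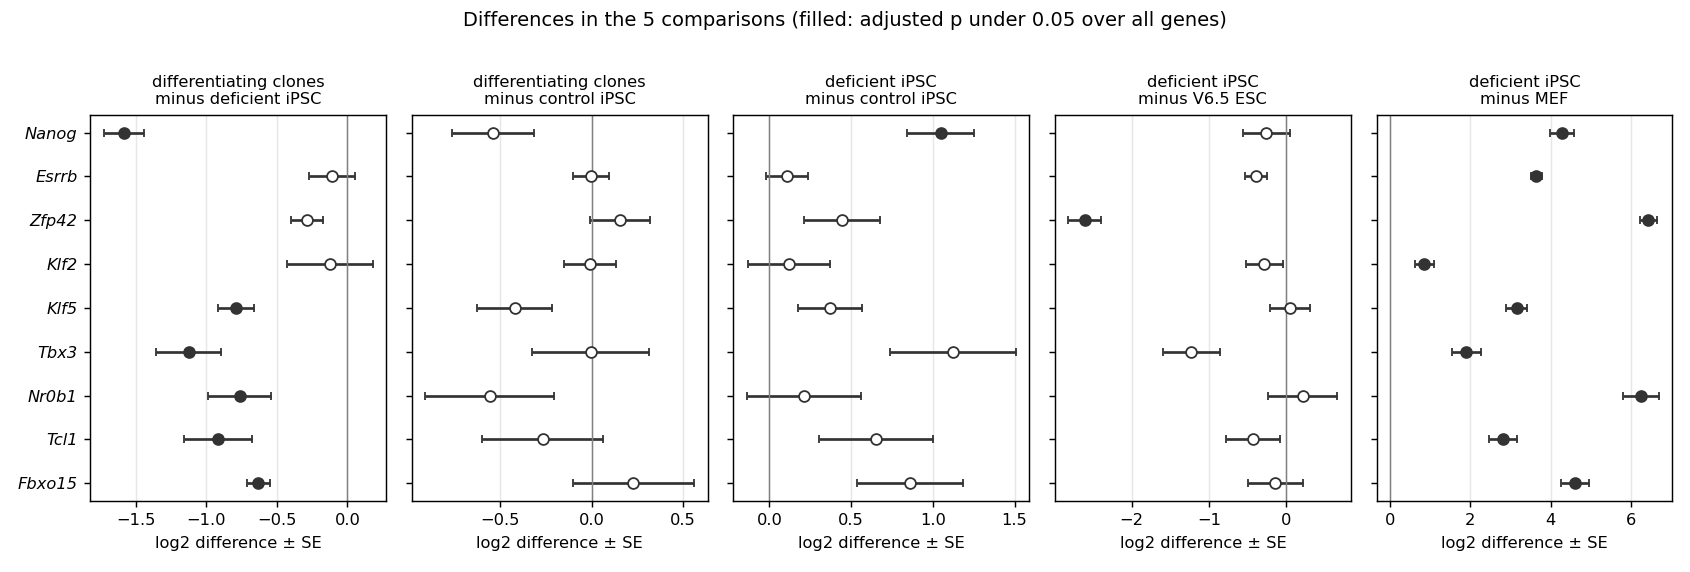
Difference on the log2 scale (horizontal axis, its range set per panel) with its SE for each gene in the 5 comparisons, filled where the adjusted p was under 0.05. Differentiating clones minus deficient iPSC have 6 filled points below 0, differentiating clones minus control iPSC have none, and deficient iPSC minus MEF have 9 above 0.

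Beside the control lines on the same arrays the differentiating clones showed no called change in any of the 9 genes, where 4.79% of all genes were called, 2.28% higher and 2.51% lower. One of the 9 had an unadjusted p under 0.05, and the median difference was -0.01 beside 0.00 for all genes. That gene was Nanog, at 11.79, 12.09 and 12.23 in differentiating clones 8, A6 and B2, against 12.60, 12.50, 12.13 and 13.07 in control lines 3 to 6. Control line 5 was the one that lay among the clones. The difference was -0.54 ± 0.22, with an interval of -1.07 to -0.01 (adjusted p = 0.231, limma). Without the doubtful array control line 5 read 12.44, the groups no longer overlapped, and the difference was -0.61 (adjusted p = 0.186).

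Within slides the differentiating clone was below the mean of the control lines in Nanog by 0.79 for clone 8, 0.47 for clone A6 and 0.34 for clone B2. With the slide as a replicate block Nanog was called lower, by 0.53 units (adjusted p = 0.0442, limma, n = 3 slides), and on the deposited ratios by 0.58 units (adjusted p = 0.0397). The same 4 control lines lie on every slide, so the block leaves out the spread between control lines and its slides are not independent. It also holds the doubtful array. On clone 8's arrays the Nanog ratio was -1.21 beside line 3, -1.15 beside line 4 and -1.33 beside line 6, but 0.39 on the doubtful array. Of all 12 arrays, 10 showed Nanog lower in the clone, the exceptions being the doubtful one and clone B2 beside control line 4 at 0.10.

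**Figure D4:**
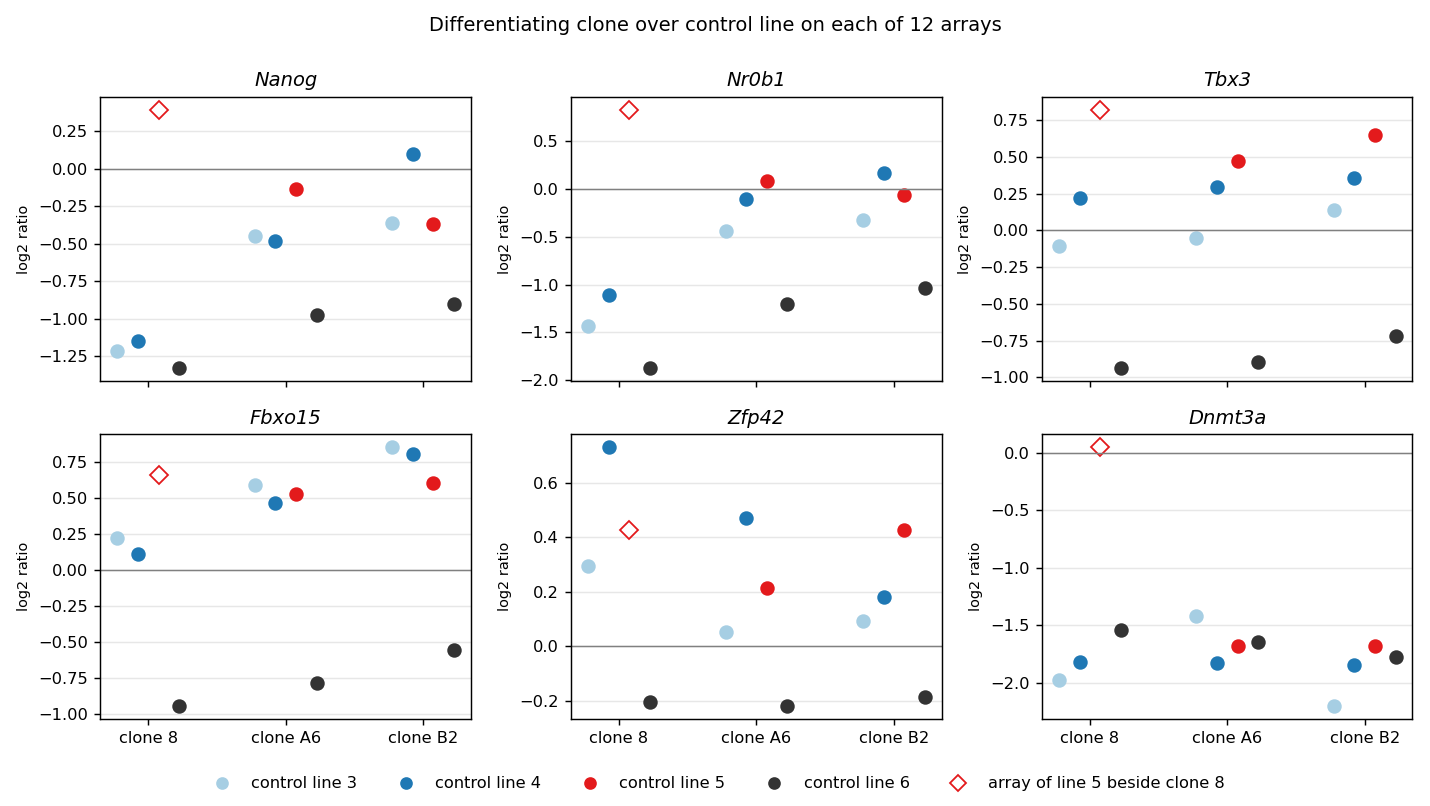
Log2 ratio of the differentiating clone over the control line (vertical axis) on each of the 12 arrays, ordered by clone and control line, for Nanog, Nr0b1, Tbx3, Fbxo15, Zfp42 and Dnmt3a. On the array of control line 5 beside clone 8 the Dnmt3a ratio is 0.05 and the Nanog ratio 0.39, while Dnmt3a lies between -2.20 and -1.42 on the other 11.

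Nr0b1 had differences of -0.90, -0.41 and -0.31 on the slides of clones 8, A6 and B2, and a fitted -0.56 ± 0.35 that was not called (adjusted p = 0.467). Klf5 had 0.03 on the slide of clone 8 and -0.79 and -0.50 on those of clones A6 and B2, with a fitted -0.42 ± 0.21 (adjusted p = 0.319). For Esrrb, Klf2 and Tbx3 the differences were within 0.01 of 0, with intervals of -0.23 to 0.23, -0.35 to 0.33 and -0.77 to 0.76. In Tbx3 control line 6 stood far above its fellows, at 12.70 against at most 11.89. Zfp42 had a difference of 0.16 ± 0.17, Tcl1 of -0.27 ± 0.33 and Fbxo15 of 0.23 ± 0.33. Leaving out the doubtful array changed no direction among the 9.

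Deficient iPSC had more Nanog RNA than control iPSC, and the other 8 genes had positive differences that were not called. Nanog stood at 13.76, 13.58 and 13.53 in deficient clones 8, A6 and B2, against 12.60, 12.50, 12.13 and 13.07 in control lines 3 to 6. The lowest deficient clone lay above the highest control line. The difference was 1.05 ± 0.21 (n = 3 and 4 lines, interval 0.56 to 1.54), so 2.07-fold higher (adjusted p = 0.00652, limma), and 1.07 without the doubtful array (adjusted p = 0.00158). It stayed called with any 1 of the 7 lines left out, at 0.90 to 1.21. V6.5 ESC, read on the same day as the deficient clones, stood 1.33 above the mean of the control lines in Nanog, a difference that was not tested.

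Tbx3 was at 13.52, 12.94 and 12.47 in deficient clones 8, A6 and B2, against 11.89, 11.56, 11.27 and 12.70 in control lines 3 to 6. Control line 6 lay above deficient clone B2, and the difference of 1.12 ± 0.39 just missed the threshold (adjusted p = 0.0515). Fbxo15 was at 15.05, 14.95 and 15.05 in deficient iPSC, against 13.79, 13.91, 13.85 and 15.09 in control iPSC. Here control line 6 was above every deficient clone while lines 3 to 5 were over 1 unit lower, and the difference was 0.86 ± 0.32 (adjusted p = 0.0666). Both were called without the doubtful array, Tbx3 at 1.18 (adjusted p = 0.0404) and Fbxo15 at 0.93 (adjusted p = 0.0487), and Tbx3 was called with Agilent's processed signals (0.0346).

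Tcl1 averaged 11.06 ± 0.37 in deficient iPSC and 10.41 ± 0.61 in control iPSC (SD, n = 3 and 4), a difference of 0.65 ± 0.35. Zfp42 differed by 0.44 ± 0.23, Klf5 by 0.37 ± 0.20, Nr0b1 by 0.21 ± 0.35, Klf2 by 0.12 ± 0.25 and Esrrb by 0.11 ± 0.13. The second Klf2 probe differed by 0.45 ± 0.12. By the probes used for levels, their adjusted p-values lay between 0.16 and 0.726, and the upper ends of their intervals between 0.41 for Esrrb and 1.48 for Tcl1. Called higher were thus 1 of the 9 genes and lower none, where 15.3% of all genes were called higher and 31% lower, and the median of the 9 differences was 0.44 beside -0.06 for all genes. One gene, Nanog, had deficient iPSC wholly above control iPSC, as 17.2% of all genes did. Without the doubtful array 3 were called, where 16% of all genes were called higher. Line values come from 1 joint fit over shared arrays, so their errors are not independent. With a plain mean of the channels of each line instead, Nanog (adjusted p = 0.00508), Fbxo15 (0.0435) and Tbx3 (0.0478) were called. The mean of its probes made Klf5 called (0.0388).

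Control line 6 carried more naive RNA than its 3 fellows. By the probes used for levels it was highest of the 4 control lines in 9 of 9 genes, as in 35.0% of all genes. Without the doubtful array it was highest in 9 of 9 and in 37.8%. Its distance above the mean of lines 3 to 5 was 1.25 for Fbxo15, 1.19 for Tcl1, 1.13 for Tbx3, 1.05 for Nr0b1 and 0.66 for Nanog, and between 0.20 and 0.50 for Esrrb, Klf2, Klf5 and Zfp42. These distances were 0.19 (Esrrb) to 1.21 (Fbxo15) without the doubtful array. By the second Klf2 probe line 6 was not the highest, at 14.62 against 14.99, 14.65 and 14.46 in lines 3 to 5. The Y-linked Eif2s3y also set line 6 apart, at 7.48 to 8.25 in its channels against 11.28 to 13.56 in those of lines 3 to 5. The upper end was 12.78 without the doubtful array. Whether that difference between control lines has a part in these distances was not tested. Eif2s3y split the differentiating clones as well. Clone 8 read 12.58 to 12.95 without the doubtful array. Clone A6 read 7.62 to 7.76 without its array beside control line 3, and clone B2 was low like line 6 on all 4 arrays. Whether this split has a part in the differences between groups was not tested. In Fbxo15 lines 3 to 5 had an SD of 0.06 around 13.85, so line 6 at 15.09 lay outside them by many times their spread and level with V6.5 ESC at 15.08. With line 6 left out, Tbx3 (1.40, adjusted p = 0.00751), Tcl1 (0.95, adjusted p = 0.0066) and Fbxo15 (1.17, adjusted p = 0.000203) were called higher in deficient iPSC beside Nanog (1.21, adjusted p = 0.000803). Fbxo15 was then also called higher in differentiating clones than in control iPSC, by 0.54 (adjusted p = 0.0206).

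**Figure D5:**
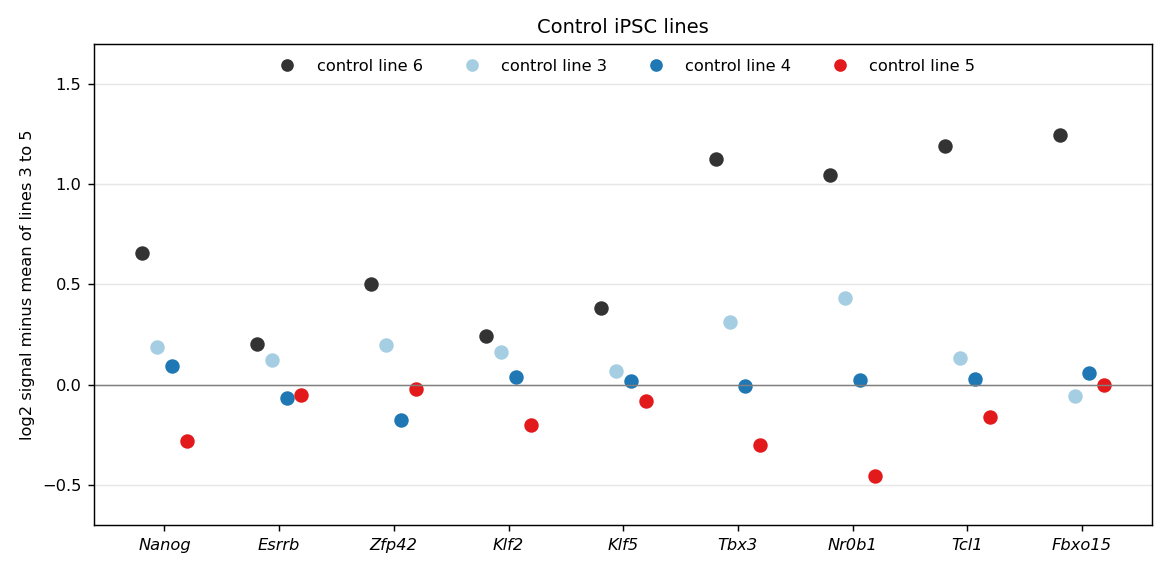
Log2 level of each control iPSC line minus the mean of lines 3 to 5 (vertical axis) for the 9 genes, with line 6 leftmost. Line 6 lies above 0 in all 9 genes, from 0.20 in Esrrb to 1.25 in Fbxo15.

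Among the deficient iPSC, clone 8 was the highest of the 3 in 9 of 9 genes, as it was in 33.7% of all genes, with a median of 0.61 above the mean of clones A6 and B2. By the probes used for levels the distance was widest in Klf2, at 16.83 against 15.90 and 15.87, and small in Nanog and Fbxo15. In Fbxo15 clones 8 and B2 both read 15.05. The second Klf2 probe read 15.19, 15.05 and 15.15 in clones 8, A6 and B2, so the wide distance rests on 1 probe. Among the differentiating clones, clone 8 was the lowest in 6 of 9 genes, as in 37.1% of all genes. Without the doubtful array it was the lowest in 7 of 9 and in 39.5%. Clone 8 also had the highest mean level of the endoderm genes described next in both of its states.

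Genes of other lists were read beside the 9, and each count of calls stands against the share of all genes called the same way. That share was 15.3% higher and 31% lower in deficient than in control iPSC, 33.1% higher and 19.4% lower in differentiating clones than in deficient iPSC, and 2.28% higher and 2.51% lower in differentiating clones than in control iPSC. Of 25 further naive and core pluripotency genes measured, 13 were called higher and none lower in deficient iPSC than in control iPSC, led by Pecam1, an adhesion molecule of naive cells (1.13 ± 0.13), and Dppa4 (0.88 ± 0.12). In differentiating clones 19 of them were called lower than in deficient iPSC and none higher, among them Lefty1, an inhibitor of Nodal signalling (-1.12 ± 0.10), and Pecam1 (-1.09 ± 0.15). Against control iPSC 1 was called lower, Lefty1 (-1.14 ± 0.16). Against V6.5 ESC 3 were called higher and 4 lower, where 3.51% and 1.86% of all genes were, with Lefty1 at 1.76 ± 0.26 and Klf4 at -1.35 ± 0.30. Against MEF 24 were called higher, where 28.2% of all genes were. Leaving out the doubtful array changed these counts to 18 lower against deficient iPSC and 3 lower against control iPSC, and left the other counts as they were.

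Of 9 genes of the LIF pathway, which keeps mouse cells naive through Stat3, 1 was called higher and 3 lower in deficient iPSC than in control iPSC, with the kinase gene Pim3 at 0.51 ± 0.09 and Stat3 at -0.33 ± 0.06. These shares are near those of all genes (15.3% higher and 31% lower). In differentiating clones Stat3 and its feedback inhibitor Socs3 were called higher than in control iPSC, by 0.48 ± 0.06 and 0.64 ± 0.12, and no member lower (1 lower without the doubtful array). Of 12 genes of the primed epiblast, the state that follows the naive one, 6 were called lower and 2 higher in differentiating clones than in deficient iPSC, where 19.4% and 33.1% of all genes were, with Foxd3 at -1.23 ± 0.08 and Fgf5 at -1.18 ± 0.29. Against control iPSC 1 was called, Fgf8, at -2.09 ± 0.42 in differentiating clones and at -2.35 ± 0.44 in deficient iPSC, where 2 others were lower and 2 higher (3 higher without the doubtful array).

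Markers of other cells moved with the groups. Of 15 genes of primitive and visceral endoderm, 14 were called higher and none lower in differentiating clones than in deficient iPSC, where 33.1% of all genes were called higher, led by Foxa2 (2.86 ± 0.30) and Cubn (2.62 ± 0.65), and 5 higher than in control iPSC (6 without the doubtful array), with Cubn at 3.81 ± 0.58. The mean level of the list was 10.79 to 11.77 in differentiating clones, 9.27 to 10.52 in deficient iPSC, 9.28 to 10.16 in control iPSC and 9.18 in V6.5 ESC. With the doubtful array left out it was 10.58 to 12.22 in differentiating clones, 9.26 to 9.69 in control iPSC and 9.39 in V6.5 ESC.

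Of 15 fibroblast genes, 12 were called lower and 1 higher in deficient than in control iPSC, where 31% of all genes were called lower, and 4 lower in differentiating clones than in control iPSC (6 without the doubtful array), where 2.51% were. In differentiating clones 5 were called higher and 2 lower (3 lower without the doubtful array) than in deficient iPSC, with the calcium-binding protein gene S100a4 at 1.53 ± 0.13, the actin gene Acta2 at -1.34 ± 0.11 and Thy1 at 0.98 ± 0.17. All genes were called higher there in 33.1% and lower in 19.4%. The mean level of the fibroblast list was 10.66 to 11.11 in differentiating clones, 10.60 to 10.72 in deficient iPSC, 11.29 to 12.15 in control iPSC, 10.40 in V6.5 ESC and 15.17 in MEF, and line 6 was the lowest of the control lines. With the doubtful array left out it was 10.70 to 11.03 in differentiating clones and 11.28 to 12.14 in control iPSC, and line 6 was again the lowest of the control lines. Whether endoderm or feeder RNA has a part in the differences of the 9 genes was not tested.

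Of 6 measured genes of the 2-cell-like state, 5 were called higher in deficient than in control iPSC, where 15.3% of all genes were, with Zscan4c at 3.11 ± 0.73 and Usp17la at 2.35 ± 0.72, and 5 lower in differentiating clones than in deficient iPSC (4 without the doubtful array), where 19.4% of all genes were, with Zscan4c at -1.96 ± 0.29. The mean level of that list was 9.70 in control line 6, against 7.73 to 8.01 in control lines 3 to 5. Of 10 trophoblast genes, 3 were lower (4 without the doubtful array) and 1 higher in deficient than in control iPSC, with the keratins Krt8 at -3.06 ± 0.24 and Krt18 at -2.66 ± 0.35. In differentiating clones 3 were called higher (2 without the doubtful array) and 3 lower than in deficient iPSC, with Krt8 at 2.41 ± 0.20 and Krt18 at 2.02 ± 0.39. Without the doubtful array the 3 lower were the trophoblast factors Eomes (-0.72), Cdx2 (-0.51) and Hand1 (-0.48), so the list did not go one way. Of 7 mesoderm genes, 3 were lower and none higher in deficient than in control iPSC, with Wnt3 at -1.13 ± 0.16 and T at -0.81 ± 0.15. The trophoblast and mesoderm shares called lower in deficient than in control iPSC are near the 31% of all genes.

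Across the 10 iPSC values of lines and states, Pearson's r was above 0 in 36 of 36 pairs of the 9 genes, between 0.36 and 0.94 with a median of 0.70 (0.32 to 0.91 and 0.69 without the doubtful array). These values share arrays, scan days and 1 normalisation, so r is a description only. The genes most like Nanog by this measure were Ucp2, a mitochondrial carrier, and Miga2, both at 0.99, and those most like Fbxo15 were Ccdc172 and Sohlh2, a germline factor, both at 0.99. Tbx3 was most like Lpcat1 (0.98) and Fzd5 (0.97), a Wnt receptor, Nr0b1 like Senp3 (0.98) and Ngfr (0.96), and Tcl1 like Mok and Tdrp (both 0.98). Klf5 ran with Dnajb1 (0.95) and Ier2 (0.94), an immediate early gene. Esrrb and Klf2 were each other's nearest gene at 0.93, followed by Tubb2b for Esrrb and Hspb8 for Klf2 (both 0.91), and Zfp42 ran with Gadd45gip1 (0.95) and Prss51 (0.93). Of these 18 picks, 8 came out again without the doubtful array, among them both for Nanog and both for Klf5.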

How the data were processed

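The deposited files hold, per the file headers, mean spot intensity and local background per dye (Agilent Feature Extraction 10.1.1.1). A further deposited file holds log2 ratios per probe for each array, with limma named in the submitters' processing notes, no version given. Set against the scanner values they ran deficient over other cells, with correlations of 0.64 to 0.999. The lowest, 0.64 and 0.80, were on the arrays of clones A6 and B2 beside V6.5 ESC.

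In R 4.3.3 with limma 3.58.1 and data.table, version 1.17.8, intensities were background-corrected (normexp, offset 50), loess-normalised within and Aquantile-normalised between arrays. Probes were kept (36967) if at least 0.5 of the channels of any kind of RNA stood well above background, outlier spots (at most 0.447% of an array) left out, and a gene was its brightest probe. Names came by accession for 14932 genes, symbol for 2547 and synonym for 1273, and 6219 kept the file's name. A separate-channel fit (12 line-and-state terms, dye, intra-spot correlation 0.795) gave line values. The 3 deficient and 3 differentiating clones were each compared with the 4 control lines, and the 2 states as pairs of the same clone. V6.5 ESC and MEF contrasts came from a fit of the 18 arrays' log ratios that included a dye term. The error of these contrasts comes from all 18 arrays. Of those, 12 hold repeated readings of 3 clones and 4 control lines, which the fit counts as independent. Tests were two-sided and were tested on simulated data. The p-values of the line comparisons measure the spread between these lines only.

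The 9 genes, the 8 other lists and the tests were chosen with earlier results of these data known, the low Zfp42 level among them. All 9 genes are named, the 2 genes most like each by Pearson's r, and of each list some of the called members, not always those with the largest change. Alternatives were Agilent's processed signals, no or full quantile normalisation between arrays, no filter, the mean of all probes, a replicate block, no dye term, only the arrays of a contrast, the deposited ratios and each line left out, and 3 were added after seeing the data (the doubtful array left out, both arrays left out, plain channel means). Each slide of the later scan day held 1 clone and all 4 control lines, which is the block.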

Additional observations from a re-analysis of the deposited data

Results flagged for a closer look

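Fbxo15 in the control iPSC was singled out because control line 6, at 15.09 log2 units, lay far from lines 3 to 5, at 13.79, 13.91 and 13.85. Its gap to the nearest of them made up 0.91 of the range of the 4 lines. The rule flags gaps past a cutoff that chance alone would pass in about 1 in 20 groups, and 9 genes were examined.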

How the results depend on the processing

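The doubtful array, and scan days that separate deficient iPSC from control iPSC and from differentiating clones, limit these results most. V6.5 ESC and MEF are 1 RNA each in 1 dye. Signal was well above background for all 9 genes in every kind of cell, so dimness limited none of the levels used. Arrays left unnormalised against each other gave a median over all genes of 0.44 for deficient minus control iPSC and of -0.44 for differentiating clones minus deficient iPSC. Relative to these medians the Nanog differences of 1.39 and -1.93 kept their direction, but 96.6% and 4.98% of calls over all genes were then higher, against 33.1% and 63% in the values reported. The causes of the changes below were not tested.

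Deficient minus control iPSC had 1 of the 9 genes called. It had 2 with Agilent's processed signals, 7 without normalisation between arrays, 2 with the mean of all probes, and 3 with plain channel means, without the doubtful array, or without both doubtful arrays. Over all genes 11566 were called, 19390 without normalisation between arrays and 7574 with plain channel means. Leaving out 1 line gave 1 (most lines) to 4 (without control line 6) of the 9, and 8830 to 13728 genes.

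Differentiating clones minus control iPSC had none called. With the slide as a replicate block, and on the deposited ratios, 1 was called (Nanog, -0.53 and -0.58). Over all genes 1197 were called, 4825 with the slide as a replicate block, 4587 on the deposited ratios, 524 with plain channel means, 2255 without the doubtful array and 2335 without both. Leaving out 1 line gave 0 to 1 of the 9 and 0 (without clone A6 or B2) to 3465 genes (without control line 6), with 1 without control line 3 and 27 without control line 4.

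Differentiating clones minus deficient iPSC had 6 called of the 9 and 13120 of all genes. Leaving out 1 clone gave 0 (without clone A6) to 7 (without clone 8) of the 9 and 0 to 14568 genes, 6901 of them without clone B2. Without normalisation between arrays 7 of the 9 and 20400 genes were called, with plain channel means 4 of the 9 and 7524. The mean of all probes gave 7 of the 9. Agilent's processed signals, full quantile normalisation and no filter on dim probes gave 5 each. With no replicate block, so the clones unpaired, Klf5 was no longer called (adjusted p = 0.0561, limma), and no other of the 9 changed its call.

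Deficient iPSC minus V6.5 ESC had 1 called of the 9, with 2 under Agilent's processed signals, 2 under full quantile normalisation, 3 with no dye term, 3 on the deposited ratios and 0 on the 3 arrays alone (4 of the 9 at an unadjusted p under 0.05, limma). Over all genes 1342 were called, 3502 with Agilent's signals, 5608 on the deposited ratios and 0 on the 3 arrays alone. With 1 array of a clone left out 1 to 2 of the 9 and 481 to 1458 genes were called. The higher share of calls over all genes was 65.4%, against 44.9% with Agilent's signals, 45% with full quantile normalisation and 44.5% on the deposited ratios. All 9 were called against MEF under each setting but the mean of all probes and the loss of clone 8's array, which each lost Klf2.

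Differences near 0 changed sign, all of them uncalled on both sides save 1. For differentiating clones minus control iPSC, Tbx3 was 0.0024 with Agilent's signals, 0.00016 with the slide as a replicate block, 0.028 on the deposited ratios and 0.019 with plain channel means. Klf2 was 0.00071, 0.050 and 0.050 under the last 3 of these. Esrrb was 0.00045 without normalisation between arrays, 0.0034 with full quantile normalisation, 0.016 with the mean of all probes and 0.0092 with the slide as a replicate block. Esrrb was also -0.076 for deficient minus control iPSC and 0.092 for differentiating clones minus deficient iPSC with the mean of all probes. Against V6.5 ESC, Klf5 was -0.11 and Fbxo15 0.070 with Agilent's signals, Klf2 0.086 and Klf5 -0.12 with full quantile normalisation, and Klf5 -0.082 and Fbxo15 0.00199 on the deposited ratios.

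With 1 line left out the signs also changed for deficient minus control iPSC in Esrrb (-0.033 to 0.20), Klf2 (-0.20 to 0.28) and Nr0b1 (-0.029 to 0.47). They changed for differentiating clones minus control iPSC in Esrrb (-0.064 to 0.084), Klf2 (-0.13 to 0.10), Tbx3 (-0.20 to 0.28) and Tcl1 (-0.42 to 0.031). They changed for differentiating clones minus deficient iPSC in Esrrb (-0.26 to 0.12) and Klf2 (-0.41 to 0.30, called at the upper end without clone 8), and against V6.5 ESC in Klf5 (-0.14 to 0.27).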
